A study of Mus musculus with 4 samples.

Results

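The 6 genes described here encode the alternative forms of 3 small subunits of cytochrome c oxidase, the heart and muscle forms Cox6a2, Cox7a1 and Cox8b and the ubiquitous, or liver, forms Cox6a1, Cox7a2 and Cox8a. They were taken by gene symbol from the deposited table of 15746 genes, in which each of the 6 was listed, and they were followed through all 4 libraries. The libraries came from hearts of adult wild type (WT) mice of which no other allele or drug is named, with 2 libraries of isolated mitochondria and 2 of the heart tissue that remained, called the rest fraction. The rest fraction was the low-speed pellet of the homogenate and may thus still hold whole cells, nuclei and mitochondria. Isolated mitochondria were treated with digitonin and RNase A before RNA was extracted, and their RNA was fragmented for an adapted time. The sources describe these steps for the mitochondrial samples and not for the rest samples, so that the effects of treatment and fraction cannot be told apart. The labels give the replicate number of each library but not the strain, number, sex or age in weeks of the animals, and p-values therefore measure only the spread between these libraries.

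Cytochrome c oxidase, complex IV of the respiratory chain, passes electrons from cytochrome c to oxygen and pumps protons across the inner mitochondrial membrane. Its catalytic core is encoded in the mitochondrial genome, whereas the smaller subunits that surround the core are encoded in the nucleus, translated in the cytosol and imported. For subunits 6A, 7A and 8, mammals have a form that is used in heart and skeletal muscle and another that is used in most tissues, and the heart switches towards the muscle forms after birth. Heart mitochondria are rich in this enzyme, which serves the constant need of the heart for ATP.

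Because both forms of a subunit were measured from the same short reads, their coding sequences are shown first. Those of Cox7a1 and Cox7a2 are given from the GENCODE M21 transcripts of GRCm38, with the longest run of bases that the pair has in common in capitals.
Cox7a1: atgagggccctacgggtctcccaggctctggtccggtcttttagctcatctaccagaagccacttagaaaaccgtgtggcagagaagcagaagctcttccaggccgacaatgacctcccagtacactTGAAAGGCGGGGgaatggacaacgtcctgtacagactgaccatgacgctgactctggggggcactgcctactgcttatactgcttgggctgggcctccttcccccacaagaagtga
Cox7a2: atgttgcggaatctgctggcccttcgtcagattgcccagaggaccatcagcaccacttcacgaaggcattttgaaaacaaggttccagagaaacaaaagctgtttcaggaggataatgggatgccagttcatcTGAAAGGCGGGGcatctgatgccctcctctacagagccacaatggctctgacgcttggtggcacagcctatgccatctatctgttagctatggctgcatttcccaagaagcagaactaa
The coding sequences of Cox8b and Cox8a, the shortest of the 3 pairs, are shown in the same way.
Cox8b: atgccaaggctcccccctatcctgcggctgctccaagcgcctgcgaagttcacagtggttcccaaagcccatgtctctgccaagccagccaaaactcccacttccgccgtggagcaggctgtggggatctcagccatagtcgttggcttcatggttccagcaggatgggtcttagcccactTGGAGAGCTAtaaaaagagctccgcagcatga
Cox8a: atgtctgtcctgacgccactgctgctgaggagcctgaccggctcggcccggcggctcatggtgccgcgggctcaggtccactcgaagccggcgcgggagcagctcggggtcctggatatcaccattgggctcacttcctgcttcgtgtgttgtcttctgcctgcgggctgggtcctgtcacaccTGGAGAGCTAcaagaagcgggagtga
Within the coding sequence, the forms were identical at 66.6% of 290 aligned bases for Cox6a2 and Cox6a1, at 67.4% of 233 for Cox7a1 and Cox7a2, and at 68.6% of 185 for Cox8b and Cox8a. The longest run shared by the full transcripts of a pair was 12, 12 and 10 bases, respectively, against a read length of 75 bases. The 75-base windows of the reference transcript were searched only for exact matches in annotated transcripts of other genes. Near matches and the rest of the genome were not searched. For Cox6a2, Cox7a1, Cox7a2, Cox8a and Cox8b, 0 of the windows occurred in a transcript of another gene. For Cox6a1, 32 of 497 windows (6.44%) did so, all of them also in AC148174.2, and reads from these windows could have been excluded as aligning to several regions.

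All 6 genes are protein-coding, and the counts covered all their exons, coding and noncoding. Cox6a2 (ENSMUSG00000030785) lies on chromosome 7 of GRCm38 from 128205435 to 128206387 on the minus strand, within Itgad on the opposite strand. Itgad is a leukocyte integrin gene, and its exons cover 70 (10.3%) of the 680 exonic bases of Cox6a2. Itgad itself had 4 to 10 normalized counts in mitochondria and 8 to 13 in the rest fraction. If strand was not used in counting, reads of the shared bases would have been excluded, and the count of Cox6a2 would be too low. Cox7a1 (ENSMUSG00000074218, from 30184144 to 30186078, plus strand) and Cox8b (ENSMUSG00000025488, from 140898945 to 140900446, minus strand) are on chromosome 7 as well. Cox6a1 (ENSMUSG00000041697) lies on chromosome 5 from 115345642 to 115348981, Cox7a2 (ENSMUSG00000032330) on chromosome 9 from 79755361 to 79759878 and Cox8a (ENSMUSG00000035885) on chromosome 19 from 7215153 to 7217616, each on the minus strand. For these 5 genes, no annotated gene overlapped on either strand.

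The promoters were compared in their content of CG, the base step at which DNA is methylated in mammals. Promoter sequences from RefSeq (GRCm38.p6) were matched for Cox6a1, Cox7a1, Cox7a2, Cox8a and Cox8b. Those of Cox8b, which had the fewest CG of the 5, and of its partner Cox8a, which span the 250 bases before the annotated start on the minus strand at chr7:140900447-140900696 and chr19:7217617-7217866, are shown with CG in capitals.
Cox8b promoter: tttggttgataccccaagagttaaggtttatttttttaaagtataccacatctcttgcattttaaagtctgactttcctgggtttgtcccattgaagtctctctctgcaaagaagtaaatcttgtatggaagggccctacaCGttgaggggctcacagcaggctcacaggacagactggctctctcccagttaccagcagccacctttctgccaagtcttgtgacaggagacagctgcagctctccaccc
Cox8a promoter: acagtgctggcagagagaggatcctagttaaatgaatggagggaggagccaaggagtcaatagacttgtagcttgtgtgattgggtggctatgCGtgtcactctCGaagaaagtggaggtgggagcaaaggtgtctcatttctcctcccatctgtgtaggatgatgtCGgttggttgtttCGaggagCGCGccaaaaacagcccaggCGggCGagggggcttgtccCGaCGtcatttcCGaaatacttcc
Among 32851 promoters of this length, the median was 6 CG, with quartiles of 2 and 16. Cox8b had 1 CG and Cox7a1 had 4, whereas Cox8a had 11, Cox7a2 had 14 and Cox6a1 had 26. Both strands were searched for 2 motifs. The motif CCGGAAG of ETS factors was found in the promoter of Cox6a1 and in 6.91% of all promoters. The E-box CAGCTG was found in that of Cox8b and in 13.0% of all promoters. These matches describe the sequence and do not show binding.

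The values, here called normalized counts, are gene counts that were scaled with size factors and rounded. Their totals ranged from 81928351 to 183395941 in mitochondria and from 6956699 to 8584617 in the rest fraction. Genes of the mitochondrial chromosome took from 93.5% to 97.6% of the totals in mitochondria and from 63.2% to 67.5% in the rest fraction. From the spacing of low values, 1 read was worth 3.873 and 2.551 normalized counts in mitochondrial replicates 1 and 2, so that 3 reads gave 11.6 and 7.65 normalized counts. In the rest libraries each whole number from 1 to 100 occurred, so that a read was worth no more than about 1 normalized count. The 6 genes together had 4070 and 3109 normalized counts in mitochondria and 1012 and 704 in the rest fraction.

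The heart forms were the abundant forms in each library. With the deposited size factors, all 3 were higher in mitochondria than in the rest fraction, by 4.40- to 4.47-fold between the means. Relative to the library total all 3 were lower, as described below. The 3 ubiquitous forms were less abundant, had smaller differences and did not pass the test. The fractions were compared by limma's moderated test on log2 of the normalized count plus 1, with Benjamini-Hochberg adjustment over 12150 genes that reached 10 normalized counts in 2 libraries or more, and each of the 6 genes passed this filter. At an adjusted p-value under 0.05, 3 of 3 heart forms and 0 of 3 ubiquitous forms were higher in mitochondria, whereas 2.16% of all tested genes were called higher. None of the 6 was called lower, as 1.39% of all tested genes were, and none was lower at an unadjusted p-value under 0.05, as 16.2% of all tested genes were. At an unadjusted p-value under 0.05, 2 of the 3 ubiquitous forms, Cox7a2 and Cox8a, were higher, as were 14.1% of all tested genes. The median log2 fold change was 2.14 for the heart forms and 1.47 for the ubiquitous forms, beside -0.14 for all tested genes.

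**Figure D1:**
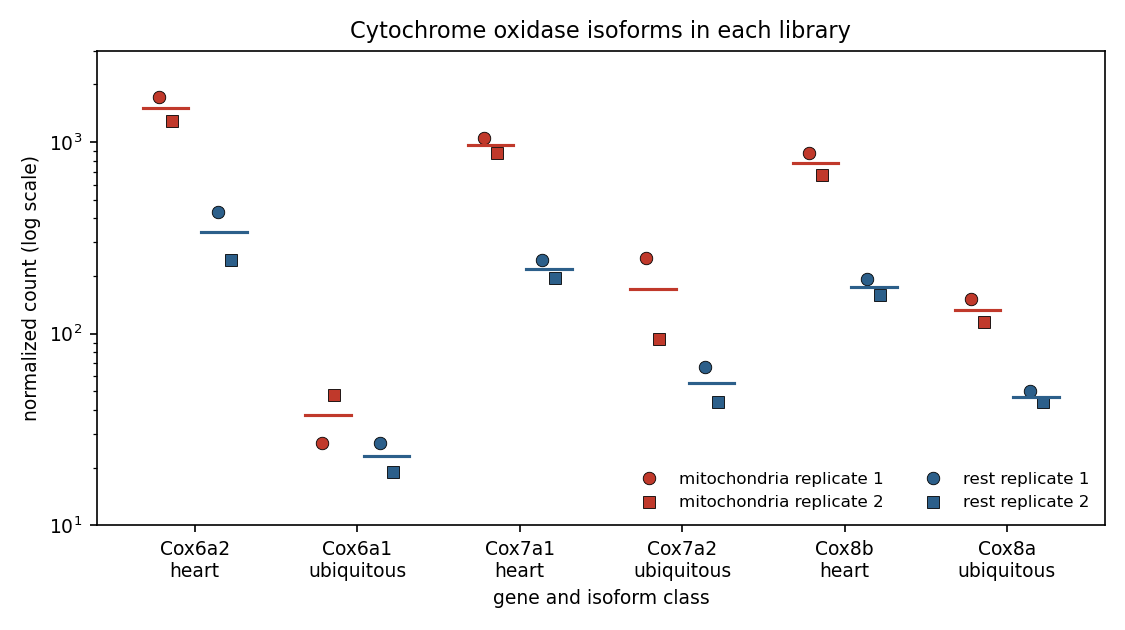
Normalized counts (vertical log axis) of the 6 genes (horizontal axis) in each of the 4 libraries, with circles for replicate 1, squares for replicate 2 and lines for the mean of a fraction. The heart forms lie above their ubiquitous partners in all libraries, and Cox6a1 is the gene for which the fractions overlap.

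Subunit 6A stabilizes the dimer of the enzyme and takes part in its regulation by nucleotides. Cox6a2, its heart form, had 1723 and 1296 normalized counts in the mitochondrial replicates and 433 and 243 in the rest replicates, here and below in the order of replicates 1 and 2. Both mitochondrial values were well above both rest values. Its log2 fold change was 2.20 ± 0.338 (SE), with an adjusted p of 0.0487 by limma, and 128 of the tested genes had a larger one. Cox6a1, the ubiquitous form, had 27 and 48 normalized counts in mitochondria and 27 and 19 in the rest fraction. Its fractions overlapped, since mitochondrial replicate 1 and rest replicate 1 had the same value. The mitochondrial values rested on only 7 and 19 reads, and the log2 fold change of 0.65 ± 0.417 (SE, with an adjusted p of 0.350 by limma) did not exceed the spread between libraries. When libraries were scaled to the sum of genes outside the mitochondrial chromosome, it was -0.19.

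Subunit 7A binds at the outside of the core and is a contact site in supercomplexes. Cox7a1, its heart form, had 1046 and 883 normalized counts in mitochondria and 243 and 195 in the rest fraction, with replicates close to each other and no overlap. Its log2 fold change was 2.14 ± 0.202 (SE), with an adjusted p of 0.0427 by limma. Cox7a2, the ubiquitous form, had 248 and 94 normalized counts in mitochondria (64 and 37 reads) and 67 and 44 in the rest fraction. The ranges did not overlap, but the mitochondrial replicates differed from each other by more than mitochondrial replicate 2 differed from the rest libraries. Its log2 fold change was 1.48 ± 0.530 (SE), with an adjusted p of 0.151 by limma. Without mitochondrial replicate 1 it was 0.78, and without mitochondrial replicate 2 it was 2.17.

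Subunit 8 is the smallest subunit and spans the membrane once beside the core. Cox8b, its heart form, had 875 and 673 normalized counts in mitochondria and 192 and 159 in the rest fraction. The replicates were close to each other and the fractions well apart. Its log2 fold change was 2.13 ± 0.218 (SE), with an adjusted p of 0.0427 by limma. Cox8a, the ubiquitous form, had 151 and 115 normalized counts in mitochondria (39 and 45 reads) and 50 and 44 in the rest fraction. All mitochondrial values of this pair lay above all rest values of the same gene. For Cox8a the log2 fold change was 1.47 ± 0.247 (SE), and with an adjusted p-value of 0.0530 from limma it was just outside the threshold. It was called higher with the trimmed mean of M-values as scale, under which 3.65% of all tested genes were called higher, among the genes with a mean above 50 (14.2%), with a pseudocount of 10 (4.41%) and with a replicate block (3.87%). Of all tested genes, 27.7% had both mitochondrial values above both rest values, as did 5 of these 6 genes.

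The calls of the heart forms depended on all 4 libraries, whereas their directions did not. With a library left out, 1 fraction had a single library, and the loss of calls was not particular to these genes. Over Cox6a2, Cox7a1 and Cox8b, the adjusted p-values from limma were between 0.0960 and 0.141 without mitochondrial replicate 1 and between 0.0523 and 0.0936 without mitochondrial replicate 2. They were 0.526 for each without rest replicate 1 and 0.485 for each without rest replicate 2. The log2 fold changes in these fits ranged from 1.78 to 2.62 for Cox6a2, from 1.98 to 2.30 for Cox7a1 and from 1.94 to 2.32 for Cox8b. The direction also depended on the scale. Relative to the library total, of which the mitochondrial chromosome took most, the log2 fold changes of the 6 genes ranged from -3.15 for Cox6a1 to -1.78 for Cox6a2, while the median of all tested genes was -3.93. On that scale all 6 were called lower (adjusted p from 7.29e-05 to 0.00363 by limma), as were 98.9% of all tested genes. Scaled to the total of the mitochondrial chromosome, all 6 were called lower too (adjusted p from 1.05e-05 to 0.000537), as were 99.4% of all tested genes.

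Relative to the median of all tested genes, each of the 6 genes was on the mitochondrial side. A change of scale shifts all genes of a library alike, apart from the effect of the pseudocount. The difference from the median is therefore nearly fixed across scales, and its sameness is no separate support. With the deposited size factors, the log2 fold change minus the median was 2.34 for Cox6a2, 2.28 for Cox7a1, 2.27 for Cox8b, 1.62 for Cox7a2, 1.61 for Cox8a and 0.79 for Cox6a1. With scaling to the library total the same differences were 2.15, 2.09, 2.08, 1.46, 1.47 and 0.78.

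The ratio of a heart form to its partner within a library hardly depends on the size factor. Here the pairs were compared by the log2 ratio of normalized counts plus 1, without regard to length. For Cox6a2 over Cox6a1 the log2 ratio was 5.94 and 4.73 in mitochondrial replicates 1 and 2 and 3.95 and 3.61 in rest replicates 1 and 2. For Cox8b over Cox8a it was 2.53 and 2.54 in mitochondria and 1.92 and 1.83 in the rest fraction. Neither of these pairs overlapped between fractions, and the ratio of Cox8b to Cox8a was nearly identical in the mitochondrial replicates. For Cox7a1 over Cox7a2 it was 2.07 and 3.22 in mitochondria and 1.84 and 2.12 in the rest fraction, which overlapped. The mean difference, mitochondria minus rest, was 1.55 for Cox6a2 over Cox6a1, 0.66 for Cox7a1 over Cox7a2 and 0.66 for Cox8b over Cox8a on the log2 scale. A two-sided exact permutation test over 2 against 2 libraries cannot give a p-value below 0.333, and this value was reached for Cox6a2 over Cox6a1 and Cox8b over Cox8a (adjusted over the 3 pairs, 0.5). For Cox7a1 over Cox7a2 the exact permutation p-value was 0.667 (adjusted, 0.667). Since this test cannot pass with so few libraries, its p-values say nothing for or against a difference between the forms of a pair, and the ratios are given as a description.

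**Figure D2:**
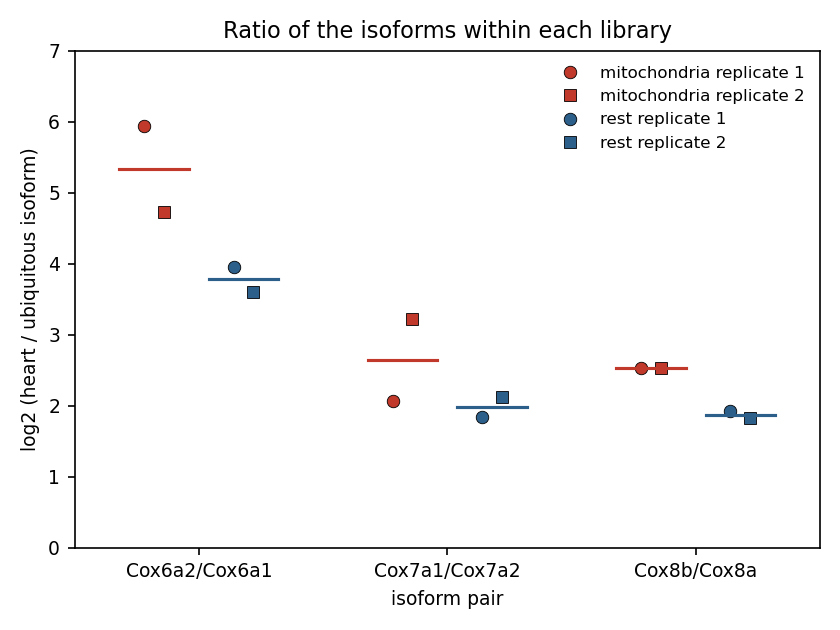
Log2 ratio of the heart to the ubiquitous form (vertical axis) within each library for the 3 pairs (horizontal axis), with circles for replicate 1, squares for replicate 2 and lines for the mean of a fraction. The fractions are separate for Cox6a2/Cox6a1 and Cox8b/Cox8a and overlap for Cox7a1/Cox7a2.

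For levels between genes, normalized counts were divided by the annotated exonic length of the gene in kilobases. Per length, the heart form made up 98.5% of subunit 6A mRNA in mitochondrial replicate 1 (95% Wilson interval 96.9% to 99.3%) and 96.5% in replicate 2 (94.6% to 97.8%). In the rest fraction it made up 94.3% in replicate 1 (91.8% to 96.1%) and 93.0% in replicate 2 (89.3% to 95.4%). These intervals cover counting error only, and those of the rest libraries take each normalized count as a single read, which is a lower limit of the reads. For subunit 7A the heart form had 88.2% (85.0% to 90.7%) and 94.3% (92.2% to 95.9%) in mitochondria and 86.5% (83.0% to 89.3%) and 88.7% (85.0% to 91.5%) in the rest fraction. For subunit 8 it had 90.9% (87.7% to 93.3%) and 91.0% (88.0% to 93.3%) in mitochondria and 86.8% (82.9% to 90.0%) and 86.1% (81.7% to 89.7%) in the rest fraction. For each subunit, the interval of at least 1 mitochondrial library overlapped with that of at least 1 rest library. The heart form was the main form of each subunit in each library, and its share was higher for subunit 6A than for subunits 7A and 8 in each of them. In normalized counts per kilobase, Cox6a2 had 2220 ± 444, Cox8b 2150 ± 397 and Cox7a1 1803 ± 215 in mitochondria (SD, n = 2 each). The order of these 3 genes does not differ beyond their spread. Cox8a had 215 ± 41.1, Cox7a2 181 ± 115 and Cox6a1 53.4 ± 21.2 in mitochondria (SD, n = 2 each), and of these, Cox8a and Cox7a2 do not differ beyond their spread. In the rest fraction the levels were 497 ± 198 for Cox6a2, 488 ± 64.8 for Cox8b, 409 ± 63.4 for Cox7a1, 75.9 ± 6.85 for Cox8a, 58.8 ± 17.2 for Cox7a2 and 32.8 ± 8.06 for Cox6a1 (SD, n = 2 each). Among 12303 nuclear protein-coding genes ranked by this measure, the heart forms ranked between 19 and 28 in the mitochondrial libraries and between 38 and 87 in the rest libraries. These ranks depend on the length used and were not repeated with another length.

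The other tested genes of the complex had positive log2 fold changes as well. Of 16 further subunit genes considered, 13 were listed and 12 were tested, of which 9 were called higher and 0 lower, and 0 had an unadjusted p-value under 0.05 in the lower direction. Over all tested genes these shares were 2.16%, 1.39% and 16.2%. Of the 9 tested nuclear genes, 8 were higher: Cox4i1, Cox5a, Cox5b, Cox6b1, Cox6c, Cox7b, Cox7c and Ndufa4. Cox7a2l, a relative of Cox7a2 that acts in supercomplex assembly, had 360 and 219 normalized counts in mitochondria and 76 and 82 in the rest fraction (log2 fold change 1.82, adjusted p = 0.0512 from limma). The median log2 fold change of the 9 nuclear genes was 1.80, with a range from 1.46 to 2.17. Cox7b, a small subunit of the membrane part, was close to the heart forms with 1754 and 1602 normalized counts in mitochondria and 389 and 365 in the rest fraction (log2 fold change 2.15, adjusted p = 0.0427). Cox4i1, which encodes the main form of subunit 4, had 2912 and 2056 against 742 and 745 (log2 fold change 1.72, adjusted p = 0.0427 from limma). Its partner Cox4i2, the form known from lung and low oxygen, had 4 and 5 normalized counts in mitochondria and 10 and 9 in the rest fraction. Its mitochondrial values were below its rest values, and it was below the limit for testing. Each of its mitochondrial values corresponds to fewer than 3 reads.

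The mitochondrially encoded core subunits had larger log2 fold changes than each of the tested nuclear subunit genes. The log2 fold change was 3.28 for mt-Co2 (adjusted p = 0.0469 from limma), 3.16 for mt-Co1 (adjusted p = 0.103) and 3.0 for mt-Co3 (adjusted p = 0.0574). For all 3, replicate 2 had the higher mitochondrial value, with 2221779 against 1389743 normalized counts for mt-Co1. For Cox6a2, Cox7a1, Cox7a2, Cox8a and Cox8b replicate 1 had the higher mitochondrial value. The standing of the 3 subunits among the nuclear subunits rested on the length used. With the isoforms of a subunit summed and divided by the union of annotated exons, subunits 8, 6A and 7A ranked 1, 2 and 3 of 10 nuclear subunits in both mitochondrial libraries. With the longest coding transcript as the length, their ranks were 3, 4 and 5 in both mitochondrial libraries, after Cox6c and subunit 4.

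**Figure D3:**
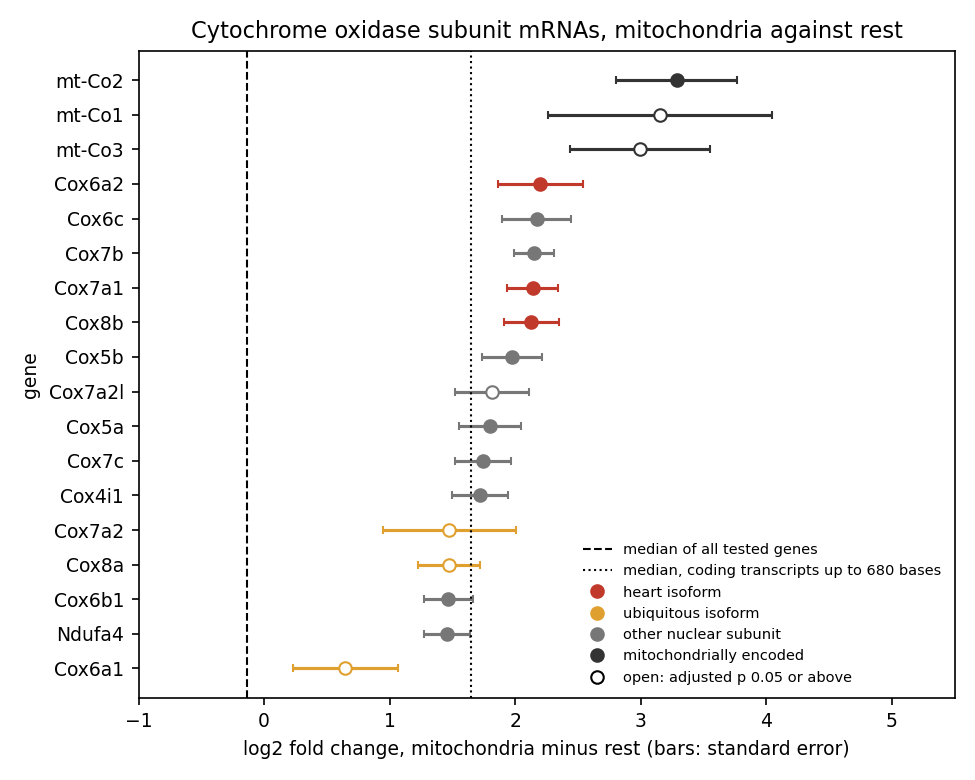
Log2 fold change, mitochondria minus rest (horizontal axis), of each tested cytochrome oxidase gene (vertical axis), with bars for the standard error and open symbols for an adjusted p-value of 0.05 or above. The 3 heart forms lie between 2.13 and 2.20, the ubiquitous forms between 0.65 and 1.48, and the dashed and dotted lines mark the medians of all tested genes (-0.14) and of nuclear genes with coding transcripts of up to 680 bases (1.65).

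Transcript length moved with the comparison. The longest coding transcript of each of the 6 genes had at most 680 bases. Of the 117 tested nuclear protein-coding genes with a longest coding transcript of up to 680 bases, which include the 6, 38.5% were called higher in mitochondria, and their median log2 fold change was 1.65. Among the 10479 longer genes the values were 1.51% and -0.15. The heart forms were above the median of the short genes, and the ubiquitous forms were below it. Within the pairs the shorter form was not always the heart form, since the longest coding transcript had 680 bases for Cox6a2 and 571 for Cox6a1, 485 for Cox7a1 and 659 for Cox7a2, and 360 for Cox8b and 550 for Cox8a. The part of transcript length in the results was not tested.

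Markers of the cells of the heart were compared beside these genes, because cell types may use the heart and ubiquitous forms in different proportions. In these fractions, the number of cells of a type, the RNA per cell and the RNA kept or lost in isolation cannot be told apart. Of 10 cardiomyocyte markers, all were listed, and 7 had both mitochondrial values above both rest values, against 27.7% of all tested genes. Their median log2 fold change was 0.87, and the summed level was 298572 and 222865 normalized counts in mitochondria and 244957 and 215496 in the rest fraction. Among them, the myosin light chain Myl3 was called higher (1.61, adjusted p = 0.0469 from limma). The log2 fold change was 1.88 for the troponin Tnnt2 (adjusted p = 0.0513), -0.20 for the myosin Myh6 (adjusted p = 0.813) and -1.35 for the calcium channel Ryr2 (adjusted p = 0.0755), none of which passed the test. Of 8 endothelial markers, 7 had both mitochondrial values below both rest values, against 33.4% of all tested genes (median log2 fold change -0.80, summed level 2375 and 2129 in mitochondria and 3627 and 3236 in the rest fraction). Of 7 fibroblast markers, 6 had both mitochondrial values above both rest values, again against 27.7% (median 1.02). Their summed level was 20365 in mitochondrial replicate 1 and 8119 in replicate 2, beside 4740 and 6187 in the rest fraction. Of 6 macrophage markers, 4 were above, against the same 27.7% (median 0.88, summed level 665 and 355 in mitochondria and 236 and 305 in the rest fraction). The cardiomyocyte, endothelial, fibroblast and macrophage sums were all higher in mitochondrial replicate 1 than in replicate 2. The smooth muscle and pericyte, erythroid and skeletal muscle sums and the brown adipose marker Cidea, given below, were lower in mitochondrial replicate 1. Cox6a2, Cox7a1, Cox7a2, Cox8a and Cox8b were higher in mitochondrial replicate 1, whereas Cox6a1 was lower. Of 5 listed smooth muscle and pericyte markers, 2 were below, against 33.4% (median -0.91, with Myh11 called lower, summed level 1372 and 1612 in mitochondria and 2498 and 3080 in the rest fraction), with Cnn1 at 0 in mitochondrial replicate 1. All 5 erythroid markers were below, against 33.4% (median -2.09, summed level 50 and 341 in mitochondria and 824 and 440 in the rest fraction), with Alas2 at 0 in mitochondrial replicate 1. The skeletal muscle myosin Myh4 had from 47 to 85 normalized counts and Myh1 from 8 to 33 over the 4 libraries, against at least 128576 for the cardiac myosin Myh6, and the summed level of the 4 listed skeletal muscle markers, which include Ckm and Acta1 of the heart, was 1844 and 2127 in mitochondria and 912 and 1272 in the rest fraction. Of 4 brown adipose markers, only Cidea was listed, with 23 and 31 normalized counts in mitochondria and 9 and 10 in the rest fraction. The part of these cell types in the results was not tested.

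Pairs of a heart or muscle form and a second form of other metabolic enzymes or carriers gave a frame for the ratio within libraries. Of 7 such pairs, 5 had a higher mean ratio in mitochondria, and 4 of these did not overlap between the fractions: Pgam2 over Pgam1, Ldhb over Ldha, Eno3 over Eno1 and Ckm over Ckb, with differences in log2 ratio of 1.52, 0.80, 0.57 and 0.37. For Slc25a4 over Slc25a5, the heart and ubiquitous carriers of adenine nucleotides, the difference was 0.10, and the fractions overlapped. For Hk2 over Hk1 it was -0.57, with no overlap. The differences of the cytochrome oxidase pairs, from 0.66 to 1.55, are set beside these as values, without a test. How often the ratios of other gene pairs do not overlap was not determined, so the counts of pairs are a description only. For Cpt1b over Cpt1a the difference was -1.23, and the fractions overlapped. This value rests on few reads, since Cpt1b was listed with 0 and 8 normalized counts in mitochondria and 10 and 16 in the rest fraction, and exons of Gm44502 cover 81.4% of its exonic bases.

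Cox7a1 and Cox8b had nearly the same profile over the libraries, and Cox6a2 was farther from both. With each gene centred on its mean log2 value over the 4 libraries, the root mean square distance was 0.050 between Cox7a1 and Cox8b, 0.194 between Cox6a2 and Cox7a1 and 0.202 between Cox6a2 and Cox8b. From Cox6a1, the distances to the other 5 genes were between 0.601 and 0.897. Among 5260 other nuclear protein-coding genes with a mean of at least 50 normalized counts, the nearest to Cox8b were Uqcr11 (0.056), a complex III subunit, and Ndufa6 (0.074), a complex I subunit. The nearest to Cox7a1 were Rps23 (0.055), a protein of the small ribosomal subunit, and Ndufb4 (0.078) of complex I. The nearest to Cox6a2 were Pet100 (0.049), an assembly factor of cytochrome oxidase, and Ndufa1 (0.148) of complex I. Cox7a2 was nearest to Atp5g2 (0.119), a gene for subunit c of ATP synthase, and Wbp1 (0.131). Cox8a was nearest to B230118H07Rik (0.013) and Dhrs4 (0.039). Cox6a1 was nearest to Stradb (0.080) and Arrdc4 (0.106), but its profile rests on only 7 and 19 reads in the mitochondrial libraries. These distances rest on 4 libraries and describe them only.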

How the data were processed

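Processed RNA-seq values of 2 libraries of heart mitochondria and 2 of the rest fraction were used, grouped by their labels. The methods state that reads were trimmed with Trimmomatic, aligned to GRCm38 (mm10) with STAR and counted over exons of each gene with featureCounts, and that reads were left out when they fell on more than 1 gene or region. The versions in the submitters' processing notes are Trimmomatic 0.39, STAR 2.7.10a, featureCounts 2.0.2 and DESeq2 1.30.1, and the methods name other versions for the last 3 of these. The use of strand in counting is not given in the sources used here. The deposited score of a gene is a read count that the authors scaled with DESeq2 size factors and rounded, and is thus no longer a count. DESeq2, used by the authors, was therefore not applied, and limma 3.58.1 (R 4.3.3) with a mean-variance trend was used with a pseudocount of 1. The fit was also run on simulated data with a set spread that was not taken from these libraries. That run therefore does not show how the test performs on these data. Exon lengths, transcripts and overlaps came from GENCODE M21, in which 15736 of 15746 identifiers were found. Precision is limited by 2 libraries per fraction, and in the mitochondrial libraries, with approximately 47400000 and 32100000 reads on genes, by the few reads of nuclear genes. Alternatives were 5 other scales (recomputed size factors, trimmed mean of M-values and 3 totals), other filters and pseudocounts, the replicate block, other lengths and the omission of each library. Named genes were the 6 members, the other subunits, 7 pairs of isoforms, the 2 nearest genes of each member and cell type markers, of which values were given for those beside a result. The members and lists were chosen with earlier results of these data known. Scripts ran under Python 3.11.15 (with scipy 1.17.1, pandas 2.3.3 and numpy 2.4.6), and plots were drawn with matplotlib 3.10.9.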

Additional observations from a re-analysis of the deposited data

How the results depend on the processing

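With 2 libraries per fraction, calls near the threshold moved with the settings. With libraries brought to 1 total, log2 fold changes were -3.15 for Cox6a1, -1.78 for Cox6a2, -1.84 for Cox7a1, -2.47 for Cox7a2, -2.46 for Cox8a and -1.85 for Cox8b. Scaled to the total of the mitochondrial chromosome, they were -3.66, -2.33, -2.39, -3.0, -3.0 and -2.39 in the same order. Scaled to the total without the mitochondrial chromosome, that of Cox6a1 was -0.19, and Cox6a2 (1.34, adjusted p = 0.0588) was no longer called. With a pseudocount of 0.1, Cox6a2 (2.20), Cox7a1 (2.14) and Cox8b (2.13) were not called (adjusted p = 0.0637, 0.0543 and 0.0543 from limma), nor was Cox6a2 without a filter on low values (2.20, adjusted p = 0.0553). Cox8a was called higher with the trimmed mean of M-values (1.49), a mean above 50 (1.47), a pseudocount of 10 (1.32) and the replicate block (1.47), with adjusted p-values of 0.0438, 0.0137, 0.0385 and 0.0422. The cause of these changes was not tested. Under the full total and the total of the mitochondrial chromosome, all 6 genes were called lower, and the smallest adjusted p-values below belong to these calls. Over all alternatives, the adjusted p-values ranged from 1.05e-05 to 0.785 for Cox6a1, from 0.000537 to 0.526 for Cox6a2, from 0.000445 to 0.526 for Cox7a1, from 6.12e-05 to 0.607 for Cox7a2, from 7.9e-05 to 0.526 for Cox8a and from 0.000476 to 0.526 for Cox8b. With a library left out, the log2 fold changes stayed positive, from 0.24 to 1.05 for Cox6a1, from 1.78 to 2.62 for Cox6a2, from 1.98 to 2.30 for Cox7a1, from 0.78 to 2.17 for Cox7a2, from 1.28 to 1.67 for Cox8a and from 1.94 to 2.32 for Cox8b. In these fits the lone library of a fraction is assumed to vary like the others. They called 0 genes higher and 0 lower, with 590 to 2333 and 468 to 3324 at an unadjusted p-value under 0.05, and 0 to 0 other subunits higher.

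Of all genes, 262 were higher and 169 lower, beside 443 and 316 with the trimmed mean of M-values, 2 and 12022 with the full total, 129 and 3819 with the total less the mitochondrial chromosome, 2 and 12076 with its total, 279 and 630 without a filter, 790 and 670 with a mean above 50, 0 and 0 with a pseudocount of 0.1 (1694 and 1754 at an unadjusted p-value under 0.05), and 536 and 580 with a pseudocount of 10. Of the other subunits, 0 were higher under the full total, 4 under the total less that chromosome, 0 under the total of that chromosome and 0 with a pseudocount of 0.1, and 9 were lower under each of both totals.

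With the replicate number as a block, 470 genes were higher and 309 lower, and of the 6 genes only the call of Cox8a changed under it. The differences between replicates correlated across genes with a Pearson's r of 0.130 between the fractions, and the sources do not say that a number marks shared animals. The block leaves the ratios of the pairs (1.55, 0.66 and 0.66) as they are. Without a library these ranged from 0.94 to 2.16 for Cox6a2 over Cox6a1, from 0.09 to 1.23 for Cox7a1 over Cox7a2 and from 0.61 to 0.70 for Cox8b over Cox8a. For Cpt1b over Cpt1a the difference was 0.12 with a pseudocount of 10 and ranged from -2.66 to 0.20 with a library left out, the latter without mitochondrial replicate 1. With the longest coding transcript as length, the mean share of the heart form in mitochondria was 97.0% for 6A, 88.9% for 7A and 89.9% for 8. In the rest fraction it was 92.3%, 84.4% and 85.1% in the same order. Without length it was 85.6% and 80.0% for 7A and 85.3% and 78.8% for 8, in mitochondria and rest.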
